A study of Mus musculus with 12 samples.

Results

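The genes described here encode 7 accessory proteins of the sodium-potassium pump, namely the beta subunits Atp1b1, Atp1b2 and Atp1b3 and the FXYD proteins Fxyd1, Fxyd2, Fxyd6 and Fxyd7. They were chosen by name from a table of 37432 genes, and all 7 passed the filter of low values that left 16215 genes for testing. The table held RNA-seq of the mouse cochlea at P14 from wild-type males and from males homozygous for the 35delG allele of Gjb2, the gene of the gap junction protein connexin 26. Each cochlea was divided into apical, middle and basal turns, and 2 repeats of each turn and genotype made 6 groups and 12 libraries. The Gjb2 35delG/35delG males were grown from homozygous embryonic stem cells put into tetraploid embryos, born by cesarean section to ICR females and nursed by others of that strain, and their background was almost C57BL/6J. The wild-type males were purchased, so genotype and origin of the mice cannot be told apart. The number of mice behind each library was not given, and p-values measure only the spread between these libraries.

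The sodium-potassium pump moves sodium out of a cell and potassium into it at the cost of ATP. Its catalytic subunit needs a beta subunit to fold and to reach the cell membrane, and a small FXYD protein can join the pair and tune its affinity for ions. In the cochlea the pump loads potassium through the marginal cells of the stria vascularis, the epithelium that makes endolymph, and it restores ion gradients in fibrocytes, neurons and glia. Levels below are FPKM, read fragments corrected for transcript length and sequencing yield, divided by a scaling factor for each library, so that they are per length and can be set side by side between genes. Differences are log2 fold changes of scaled FPKM + 1, homozygous minus wild-type unless stated, with their standard error (SE) and a p from limma adjusted over all genes tested. Calls needed both an adjusted p below 0.01 and more than a 2-fold difference. Libraries of the genotypes often did not overlap within a turn, for 26.2% to 32.1% of genes tested in each turn and direction.

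The libraries differed in the cell types they held. Mean log2(scaled FPKM + 1) over 12 neuronal markers lay between 4.93 and 6.06 in 5 of 6 wild-type libraries and was 1.06 in the first wild-type basal library. It was 6.60 and 6.97 in the homozygous basal libraries and 2.29 to 4.40 in the other homozygous ones. Kcne1, a potassium channel subunit that defines strial marginal cells, was listed at 0 in 4 libraries (wild-type apical 1, middle 2 and basal 1, and homozygous basal 2), while it reached 121 in homozygous apical 2. The mean level of 11 hair cell markers was lowest in the homozygous basal libraries, at 0.71 and 0.67, with only 2 of the 11 genes at 1 FPKM or more in the poorer of them. Gjb2 itself was at 248 to 254 scaled FPKM in wild-type and 332 to 376 in homozygous apical libraries, and at 256 to 434 and 58.6 to 126 in basal ones, and a gene level does not show a deletion of a single base.

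All 7 genes lie on 4 chromosomes of GRCm38. Atp1b1 is on the minus strand at chr1:164437109-164458355, Atp1b2 on the minus strand at chr11:69599736-69605829 and Atp1b3 on the minus strand at chr9:96332655-96364442. Fxyd6 (chr9:45370185-45396159) and Fxyd2 (chr9:45399709-45410278) are neighbours on the plus strand, 3549 bases apart. Fxyd7 (chr7:31042513-31051467) and Fxyd1 (chr7:31051678-31055708) are neighbours on the minus strand, 210 bases apart. Exons of Atp1b1 overlap those of Nme7 on the opposite strand, but Nme7 did not exceed 9.45 FPKM in any library.

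RefSeq (GRCm38.p6) gave promoters for Atp1b1, Atp1b3, Fxyd1 and Fxyd6. The 250 bases before the start of Atp1b1 (chr1:164458356-164458605, minus strand) and of Atp1b3 (chr9:96364432-96364681, minus strand, the first of 2 listed starts) are shown because these beta subunits, both abundant, did not follow each other over the libraries (r = 0.06 over 12). Capitals mark GGGCGG, the GC box, read on either strand, and the sequences run 5′ to 3′ along the gene.
Atp1b1: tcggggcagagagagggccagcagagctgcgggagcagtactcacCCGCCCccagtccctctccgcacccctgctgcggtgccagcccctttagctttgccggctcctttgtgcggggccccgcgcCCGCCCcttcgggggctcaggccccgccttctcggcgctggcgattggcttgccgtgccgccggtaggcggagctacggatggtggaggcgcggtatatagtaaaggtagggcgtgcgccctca
Atp1b3: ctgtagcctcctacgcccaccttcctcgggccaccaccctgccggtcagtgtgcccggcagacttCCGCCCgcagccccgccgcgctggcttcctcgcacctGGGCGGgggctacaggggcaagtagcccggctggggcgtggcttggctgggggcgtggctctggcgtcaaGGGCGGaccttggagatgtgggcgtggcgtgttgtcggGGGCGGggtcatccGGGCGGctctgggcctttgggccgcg
The stretch of Atp1b1 held 2 such boxes and that of Atp1b3 held 5, while the window of the other listed start of Atp1b3 held 0. At least 1 was found in 35.9% of 32534 RefSeq promoters of the same 300-base window, and none in those of Fxyd1 and Fxyd6.

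Atp1b1 had the highest level of the 7 genes, with a mean of 413 scaled FPKM over 12 libraries. Fxyd6 (mean 224), Atp1b2 (mean 213) and Atp1b3 (mean 176) followed, then Fxyd1 (mean 92.7), Fxyd2 (mean 15.1) and Fxyd7 (mean 3.15). The ranges of neighbours in this order overlapped except for Fxyd1 and Fxyd2, where the lowest Fxyd1 value (67.9) was above the highest Fxyd2 value (51.6). Fxyd1 was the steadiest, with a highest value 1.85 times its lowest, and 72.1% of genes tested varied more. Fxyd2 varied most, 126-fold between its extremes, and only 0.783% of genes tested had a larger SD on the log2 scale.

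**Figure D1:**
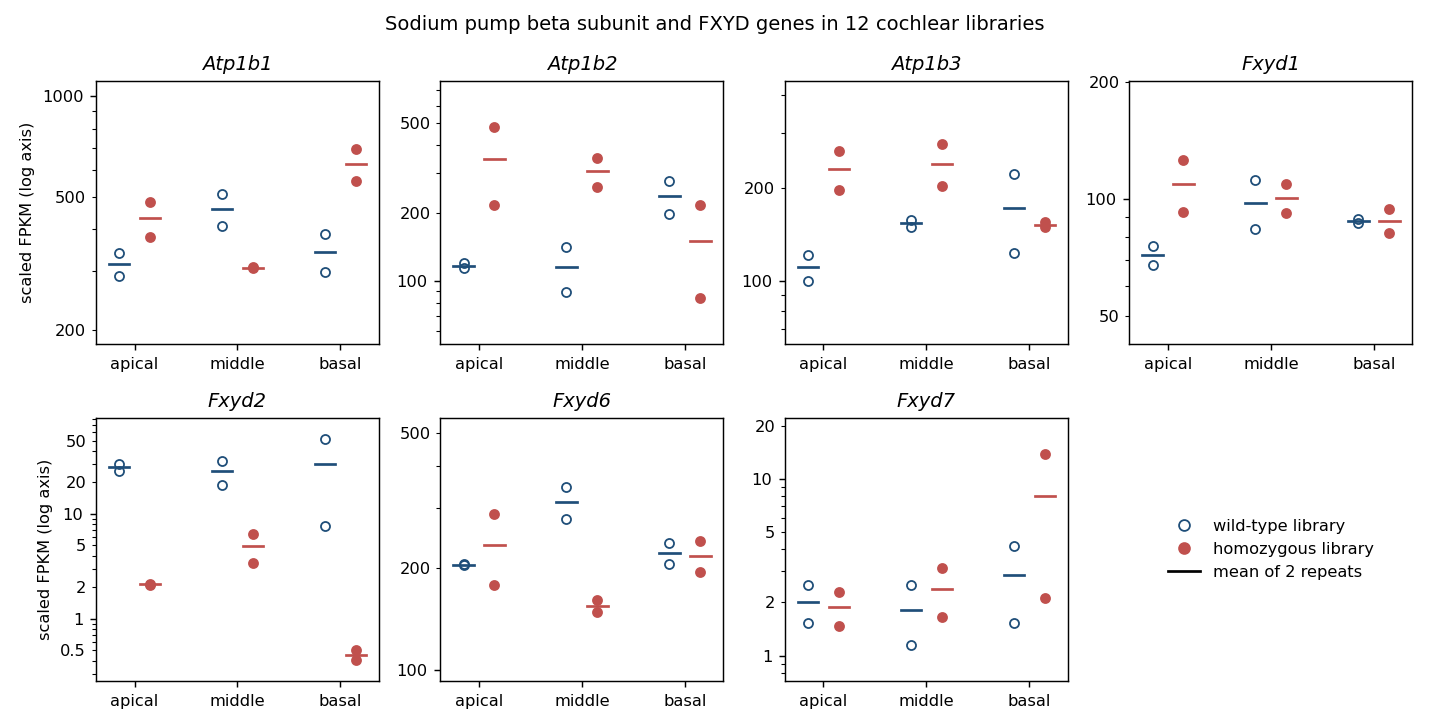
Scaled FPKM (log axis, different range in each panel) of the 7 genes by turn, with open circles for wild-type libraries, filled circles for homozygous libraries and bars for the mean of 2 repeats. The 6 homozygous Fxyd2 values, 0.409 to 6.46, all lie under the 6 wild-type values, 7.65 to 51.6.

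Fxyd2, the gamma subunit of the pump and a protein best known from kidney tubules, was lower in homozygous cochleae in each of the turns. At the apex the wild-type libraries had 29.7 and 25.7 scaled FPKM and the homozygous ones 2.10 and 2.16, a ratio of means of 13.0. In the middle turn the wild-type values were 18.7 and 32.3 and the homozygous values 3.38 and 6.46, a ratio of 5.18. In the basal turn the wild-type libraries differed, at 51.6 and 7.65, and the homozygous ones were at 0.503 and 0.409, a ratio of 65.0. No homozygous library reached any wild-type library of any turn. Such a separation of all 6 homozygous libraries below all 6 wild-type ones was seen for 0.66% of genes tested, and the opposite, seen for 0.808%, for 0 of the 7.

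The fall of Fxyd2 passed the test in the mean of the 3 turns (log2 fold change -3.08, SE 0.396, adjusted p 0.00809) and in the basal turn (-3.87, SE 0.685, adjusted p 0.00892). Of all genes tested, 0.376% were called in the mean of the 3 turns and 4.29% in the basal turn, and Fxyd2 was the only one of the 7 called in either. The apical difference was -3.19 (SE 0.685, adjusted p 0.0735) and the middle one -2.16 (SE 0.685, adjusted p 0.0974), neither of which passed, and 0.179% of genes were called in each of these turns. An exact permutation of the genotype within turns, two-sided over all assignments, gave p = 0.00926 for Fxyd2, the smallest it can give. Genotypes that do not overlap in any turn, all in 1 direction, always give this value, so it adds nothing to the separation above. Among the other genes of the 7, the exact permutation p was lowest for Atp1b3 (exact permutation p = 0.0741) and highest for Fxyd7 (exact permutation p = 0.454). The permutation treats the 6 libraries of a genotype as separate mice, but turns of 1 cochlea may have entered several libraries. The p of the permutation and of the mean over the turns would then be too small. Without the basal libraries, an alternative added after the values were seen, the difference over the apical and middle turns was -2.67 (adjusted p 0.00126). The basal call held in 7 of 23 other fits and the call in the mean of the 3 turns in 10 of 23. These 10 include the fit without the basal libraries, which is not a mean of 3 turns. With the replicate block their adjusted p-values were 0.0161 and 0.0202, and with only the groups compared the basal one was 0.137. The basal call held in 1 of 12 fits that left out a library and the mean call in 2 of 12. Leaving out 1 library at a time gave adjusted p-values of 9.09e-05 to 0.0397 for the mean of the 3 turns, and without the first wild-type basal library the basal difference was -2.57 (adjusted p 0.013). In bulk tissue, fewer cells that express a gene and less of its RNA per cell cannot be told apart.

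Several marker lists differed along with Fxyd2. The summed level of 8 supporting cell markers was lower in homozygous libraries in each turn, at 521 to 738 against 2283 to 2422 scaled FPKM in the apical, 398 to 623 against 1242 to 1477 in the middle, and 52.5 to 61.0 against 490.2 to 2371 in the basal libraries. Ceacam16, a protein of the tectorial membrane, reached 2268 in that sum, and the mean log2 level of the same markers was 5.01 to 5.50 in homozygous and 5.12 to 5.24 in wild-type apical libraries and higher in homozygous middle libraries (4.22 to 4.69 against 3.52 to 3.69). In the basal turn the 6 fibrocyte markers summed to 469 to 2563 in homozygous and 6750.1 to 7032 in wild-type libraries, and the 11 hair cell markers to 9.82 to 10.9 against 114 to 125. The mean log2 level of the fibrocyte markers was 7.16 in homozygous basal 1 and 3.71 in homozygous basal 2. It was 7.23 and 7.68 in the wild-type basal libraries. Neuronal markers took another course. The highest Fxyd2 value, 51.6, came from the wild-type basal library with the fewest neuronal transcripts (summed level of the 12 markers 16.8 scaled FPKM), and the lowest values from the homozygous basal libraries, where that sum was 3229 and 3627. In the wild-type apical and middle libraries the sum ranged from 737 to 1869 and Fxyd2 from 18.7 to 32.3. Over the 12 libraries its Pearson r was -0.33 with the neuronal markers and -0.53 with the strial marginal cell markers. Mean levels of hair cell, supporting cell and fibrocyte markers gave r = 0.46, 0.33 and 0.16. These libraries share groups, so the coefficients are descriptions, and the part of cell make-up in the fall of Fxyd2 was not tested.

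**Figure D2:**
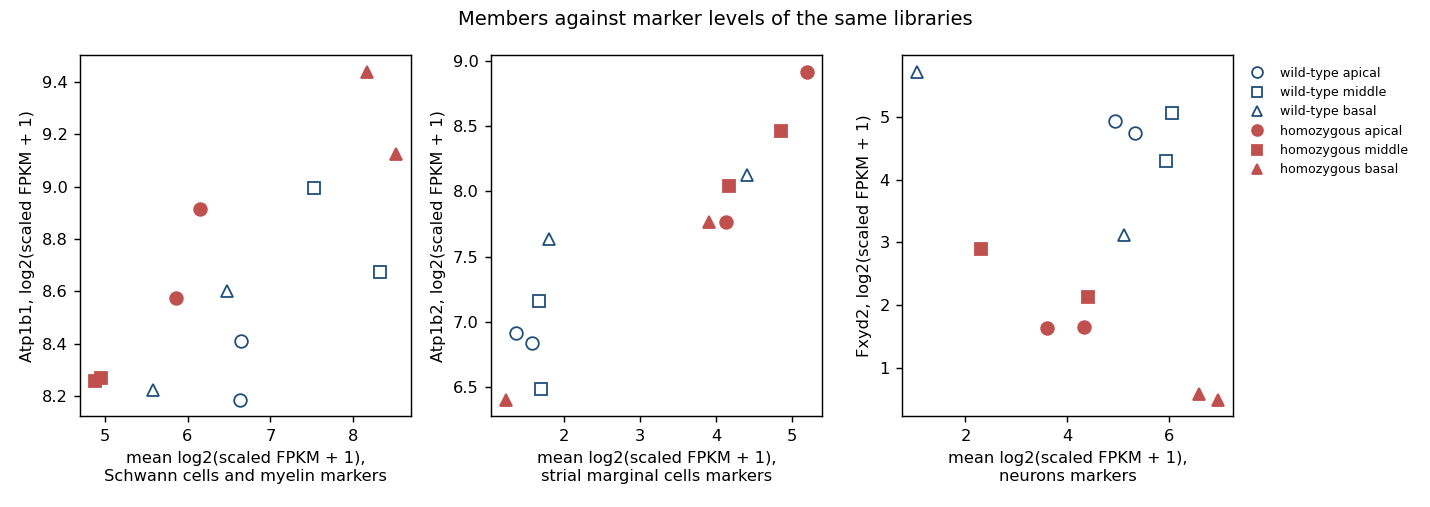
Level of Atp1b1, Atp1b2 and Fxyd2, as log2(scaled FPKM + 1), against the mean log2 level of Schwann cell, strial marginal cell and neuronal markers in the same 12 libraries, with open symbols for wild-type and filled symbols for homozygous. Atp1b2 followed the marginal cell markers (r = 0.92), and Fxyd2 had r = -0.33 with the neuronal markers. The part of cell make-up in these differences was not tested.

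Atp1b2, a beta subunit also known as the adhesion molecule on glia, stood higher in homozygous cochleae than in wild-type ones at the apex and in the middle turn, and neither difference passed the test. At the apex it had 119.9 and 113 scaled FPKM in wild-type against 216.4 and 482 in homozygous samples (log2 fold change 1.46, SE 0.505, adjusted p 0.205). In the middle turn the values were 142 and 88.8 against 262 and 351 (1.43, SE 0.505, adjusted p 0.126). In both turns the groups did not overlap. In the basal turn they did, with wild-type at 197 and 278 and homozygous at 217 and 83.6. The mean over the 3 turns was 0.70 (SE 0.292, adjusted p 0.243). Atp1b2 in the homozygous basal turn was lower than in the homozygous apical turn by -1.25 (adjusted p 0.122) and than in the middle turn by -1.16 (adjusted p 0.14). Leaving out 1 library moved these to between -1.94 and -0.56 and between -1.85 and -0.47, with the extremes without homozygous basal 1 and homozygous basal 2. The genotype difference in the basal turn departed from that in the apical turn by -2.26 (SE 0.715, adjusted p 0.0737) and from that in the middle turn by -2.22 (adjusted p 0.0542), and none of these passed.

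Markers of the stria moved with Atp1b2. The summed level of 7 marginal cell markers was 56.6 to 59.3 scaled FPKM in wild-type apical and 62.9 to 72.0 in wild-type middle libraries, against 232 to 545 and 264 to 377 in the homozygous ones. Within the basal turn the sum ran from 54.7 to 307 in wild-type and from 58.6 to 216.4 in homozygous libraries. The library with more marginal cell markers was the one with more Atp1b2 in both basal groups. Over 12 libraries Atp1b2 had r = 0.92 with these markers and 0.89 with markers of strial intermediate cells. Only 3 of the 7 marginal cell markers reached 1 FPKM in the poorest wild-type apical library, and at least 6 did in both homozygous apical libraries. Their part in the Atp1b2 differences was not tested.

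Atp1b3, the third beta subunit, showed a similar order. Its apical values were 121 and 99.7 scaled FPKM for wild-type, 197 and 263 for homozygous (log2 fold change 1.04, SE 0.299, adjusted p 0.149). In the middle turn the values were 157 and 149.8 against 202 and 277. Both homozygous libraries were above both wild-type ones in each of these turns. In the basal turn the wild-type libraries, at 123 and 221, enclosed the homozygous ones at 155 and 149. The mean over the 3 turns was 0.52 (SE 0.173, adjusted p 0.155), and the basal turn departed from the apical turn by -1.16 (SE 0.423, adjusted p 0.108). Neither passed the test. Atp1b3 had r = 0.88 with the marginal cell markers and 0.79 with Atp1b2.

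Atp1b1, the most widely used beta subunit, took a different course along the cochlea. Apical wild-type libraries had 289.9 and 339 scaled FPKM, homozygous ones 380.1 and 482. In the middle turn the order was the opposite, wild-type having 408 and 509 and homozygous 305 and 307. In the basal turn the wild-type values were 298 and 388 and the homozygous values 694 and 558 (log2 fold change 0.87, SE 0.262, adjusted p 0.051). The groups did not overlap in any turn, with homozygous libraries higher at the apex and base and lower in the middle. In these directions, 26.9% of genes tested did not overlap at the apex, 26.2% at the base and 28.2% in the middle turn. The basal difference exceeded the middle one by 1.44 (SE 0.371, adjusted p 0.0251), which is under 0.05 but not under the 0.01 used for a call, while the median of all genes for this contrast was -0.12. The middle difference departed from the apical one by -1.02 (SE 0.371, adjusted p 0.586). Among homozygous libraries the basal turn was above the middle turn by 1.02 (SE 0.262, adjusted p 0.0285). An adjusted p under 0.05 with a fold over 2 was reached by 19.8% of genes tested in the former contrast of basal and middle effects and by 12.4% in the latter.

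Markers of nerve and myelin differed between genotypes in the direction of Atp1b1 in the middle and basal turns but not at the apex. The summed level of 10 Schwann cell and myelin markers was 789 to 821 scaled FPKM in the homozygous middle libraries, where Atp1b1 was at 305 and 307, and 9524 to 14987 in the homozygous basal ones, where it was at 694 and 558. In wild-type middle libraries that sum was 20131 where Atp1b1 was at 408 and 5874 where it was at 509. At the apex, where Atp1b1 was higher in homozygous libraries, it ran the other way, with 1664 to 2199 in homozygous and 2672 to 2851 in wild-type libraries, as did the neuronal sum (215 to 400.4 against 737 to 1073). Within the wild-type middle, homozygous middle and homozygous basal groups, the library with more Atp1b1 had the lower Schwann cell and myelin sum. Within the apical groups and the wild-type basal group it had the higher one. All 10 of these markers were present at 1 FPKM or more in every library. Atp1b1 had r = 0.74 with these markers, 0.69 with neuronal markers and -0.74 with hair cell markers over 12 libraries. Their part in the result was not tested.

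**Figure D3:**
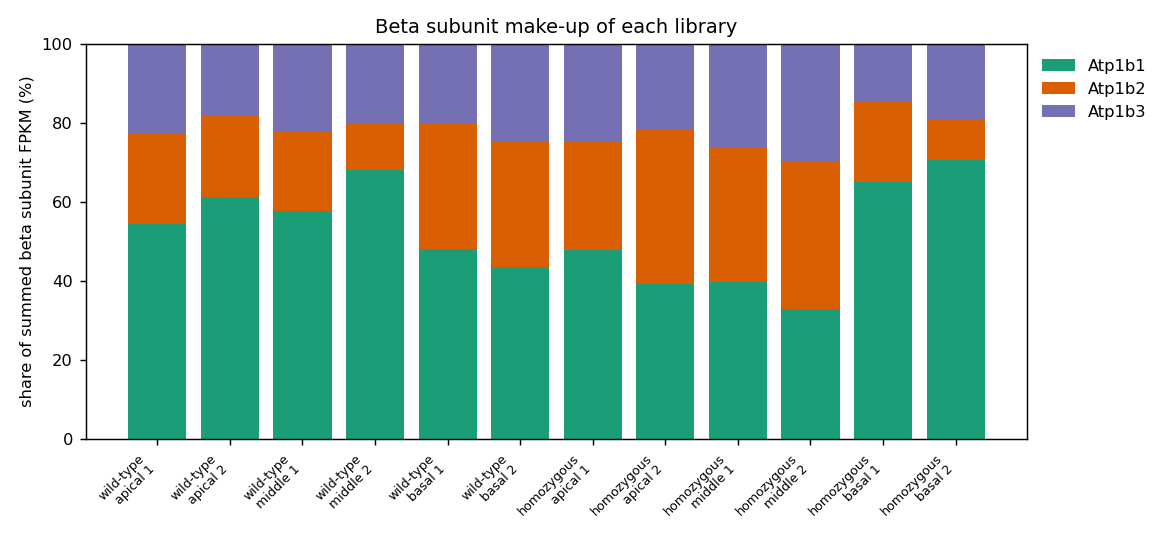
Stacked bars give the share of Atp1b1, Atp1b2 and Atp1b3 in the summed scaled FPKM of the beta subunits (%) in each of the 12 libraries. Atp1b1 made up 32.8% in homozygous middle 2 and 70.6% in homozygous basal 2, the lowest and the highest share.

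The make-up of the beta subunits varied among the libraries of both genotypes. The share of Atp1b1 in the summed beta subunit level was 54.6% and 61.4% in wild-type apical, 57.7% and 68.1% in wild-type middle, and 48.2% and 43.7% in wild-type basal libraries. In homozygous libraries it was 47.9% and 39.3% at the apex, 39.7% and 32.8% in the middle turn, and 65.1% and 70.6% at the base. Homozygous shares were thus below wild-type shares in the apical and middle turns and above them in the basal turn, without overlap. With each turn counted once, the homozygous mean was 49.2% and the wild-type mean 55.6%, a difference of -6.38 percentage points (exact permutation within turns, two-sided, p = 0.417). The difference was 5.12 points for Atp1b2 (exact permutation p = 0.398) and 1.27 points for Atp1b3 (exact permutation p = 0.574), and the smallest p the design allows is 0.00926.

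Fxyd6, a regulator known from brain and inner ear, was lower in the homozygous middle turn, short of a call. There the wild-type libraries had 279 and 347 scaled FPKM, the homozygous ones 161 and 149, without overlap (log2 fold change -1.002, SE 0.259, adjusted p 0.0635). Apical values were 205.2 and 204.5 against 179 and 288, and basal ones 237 and 206 against 196 and 240.2, with overlap in both. In wild-type libraries the middle turn was above the apical turn by 0.60 (SE 0.259, adjusted p 0.246). The middle difference departed from the apical one by -1.15 (SE 0.366, adjusted p 0.576) and the basal from the middle one by 0.98 (SE 0.366, adjusted p 0.087), and neither passed. Fxyd6 had r = 0.57 with Schwann cell and myelin markers, whose summed level in the middle turn was given above for Atp1b1. In wild-type middle libraries that sum was 20131 where Fxyd6 was at 279 and 5874 where it was at 347. In the basal turn, where Fxyd6 overlapped, the sum was 9524 to 14987 in homozygous and 1443 to 5657 in wild-type libraries. The part of these markers in the Fxyd6 difference was not tested.

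Fxyd1, phospholemman, a regulator known from heart and muscle, had similar levels in most groups. At the apex the wild-type libraries had 76.1 and 67.9 scaled FPKM, the homozygous ones 92.7 and 126 (log2 fold change 0.58, SE 0.212, adjusted p 0.224), without overlap. In the middle turn the values were 112 and 83.8 against 92.5 and 109. In the basal turn they were 89.1 and 86.8 against 81.7 and 94.6. Groups overlapped in both of the latter. Fxyd1 shared its course most with Atp1b3 among the 7 genes (r = 0.75).

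Fxyd7, a regulator known from brain neurons, was close to the limit of the filter. Wild-type values ran from 1.15 to 4.17 scaled FPKM, and homozygous apical and middle values from 1.46 to 3.12. The homozygous basal libraries were at 2.11 and 13.8, so its only high value came from 1 library. No contrast reached an unadjusted p under 0.05 for Fxyd7. Fxyd2 was above Fxyd7 in all 6 wild-type libraries but below it in both homozygous basal libraries and in homozygous apical 1, where Fxyd7 was at 2.29 and Fxyd2 at 2.10.

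**Figure D4:**
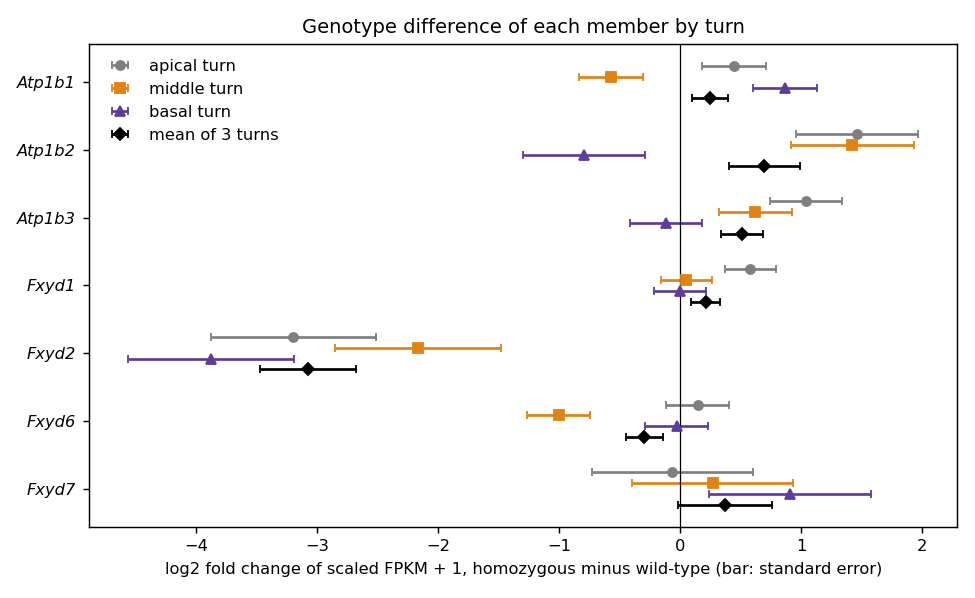
Log2 fold change of scaled FPKM + 1, homozygous minus wild-type, for each of the 7 genes in the apical, middle and basal turns and as the mean of the 3 turns, with bars for the standard error. Only Fxyd2 stays on one side of 0 by more than its error in every turn, at -3.19, -2.16 and -3.87.

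Counted over the 7 genes, differences between genotypes did not run in a common direction. Both homozygous libraries were above both wild-type ones for 4 of 7 genes apically, 2 in the middle turn and 1 basally, against 26.9%, 31.3% and 26.2% of genes tested. They were below for 1, 3 and 1 of 7, against 32.1%, 28.2% and 27.8%. The median log2 fold change of the 7 genes was 0.45, 0.05 and -0.03 from apex to base, and over all genes tested it was -0.03, 0.04 and -0.02. At an unadjusted p under 0.05 there were 4, 3 and 2 of the 7 genes in these turns, beside 16.4%, 25.4% and 32.4% of all genes, and 3 of 7 in the mean of the 3 turns, beside 18.6%.

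None of the 7 genes was called between turns. In wild-type cochleae limma called 0 of 7 between middle and apical, basal and apical, and basal and middle turns, where it called 0.0863%, 0.0863% and 0% of genes tested, and 1 of 7 (Fxyd6, middle against apical) had an unadjusted p under 0.05, beside 19.9%, 20.3% and 15.2% of all genes. In homozygous cochleae it also called 0 of 7, with 0%, 4.06% and 4.66% of genes tested, and Atp1b1, Atp1b2 and Fxyd2 had an unadjusted p under 0.05 between basal and middle turns, and Atp1b2 between basal and apical turns, where the shares of all genes were 34.6% and 32.9% (middle against apical, 0 of 7 and 2.65%). For Fxyd2 that difference was -1.97 (SE 0.685, adjusted p 0.0767). Differences of the genotype effect between turns were called for 0 of 7 as well, with 0%, 0.796% and 8.91% of genes tested for middle against apical, basal against apical and basal against middle. Atp1b1, Atp1b2, Atp1b3 and Fxyd6 each had an unadjusted p under 0.05 in at least 1 of these, 2, 2 and 3 of 7 genes in that order of contrasts, beside 8.05%, 28.4% and 37.7% of all genes.

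Other genes linked to the pump were few at these levels. Fxyd3, Fxyd5, Nkain1, Nkain2 and Nkain4 passed the filter, and 0 of these 5 was called in any comparison of genotypes within a turn or over the turns. Nkain2, a protein that binds beta subunits and is known from neurons, was at 19.2 scaled FPKM at most. It was higher in homozygous basal than middle libraries by 1.76 (SE 0.324, adjusted p 0.00951), and its genotype difference was higher in the basal than in the middle turn by 2.78 (SE 0.459, adjusted p 0.00457). These calls held in 9 and 11 of 23 other fits. The neuronal markers summed to 3229 to 3627 scaled FPKM in homozygous basal and 61.3 to 425 in homozygous middle libraries. In wild-type basal libraries they summed to 16.8 and 914, with Nkain2 at 5.18 and 6.03. In wild-type middle libraries they summed to 1753 and 1869, with Nkain2 at 19.2 and 7.81. The part of these markers in the result was not tested. Fxyd5, a regulator of epithelia, ranged from 5.86 to 190.4 scaled FPKM, and Fxyd3, another epithelial member, from 9.14 to 41.7. Fxyd4 and the proton or potassium pumps Atp4a, Atp4b and Atp12a stayed at or near 0. Nkain3, which did not pass the filter, was at 0.44 to 0.60 scaled FPKM in wild-type apical and middle libraries. It was at 1.10 and 0.082 in wild-type basal libraries and at 0.0078 to 0.23 in homozygous ones.

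Of 16 genes of cochlear potassium cycling, 1 was called in the basal turn and none in the other turns or their mean, where 4.29% of all genes tested were called in the basal turn, 0.179% in each other turn and 0.376% in the mean. Kcnj16, an inward rectifier subunit, was at 128 and 47.9 scaled FPKM in wild-type basal and at 6.14 and 1.501 in homozygous basal libraries (log2 fold change -4.24, SE 0.536, adjusted p 0.00462). That call held in 14 of 23 other fits (highest adjusted p 0.133). The fibrocyte, supporting cell and hair cell markers were lower in the same homozygous basal libraries, as given above for Fxyd2. By mean log2 level the fibrocyte markers were clearly lower only in homozygous basal 2. Kcnj16 shared with Fxyd2 a highest basal value in wild-type basal 1 and a lowest in homozygous basal 2. It was lower in homozygous basal than apical libraries by -3.16 (adjusted p 0.00818) and than middle libraries by -3.28 (adjusted p 0.00696). These calls between turns held in 9 and 11 of 23 other fits. Gjb6, connexin 30 and the partner of connexin 26, had a genotype difference in the basal turn below that in the middle turn by -2.08 (SE 0.393, adjusted p 0.00747). Its homozygous values were 283 and 379 against 166 and 155 in wild-type at the apex. They were 285 and 448 against 124 and 176 in the middle turn, and 166 and 154 against 292 and 271 at the base. The Gjb6 call held in 8 of 23 other fits. The median log2 fold change of the 16 genes was -0.39 at the base, beside -0.02 over all genes tested, with 5 genes above 0 and 11 below. It had the opposite sign elsewhere, at 0.68 for the apex (11 above, 5 below) and 0.85 for the middle turn (14 above, 2 below). All genes tested had medians of -0.03 and 0.04 there. For the mean of the 3 turns the median of the 16 was 0.12, with 8 above 0 and 8 below.

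Genes with the most similar course were taken by Pearson r of log2(scaled FPKM + 1) over 12 libraries among the 9456 genes averaging 5 scaled FPKM or more. Atp1b1 was followed most closely by Plekhb2 (r = 0.961), Ubtd1 (0.944) and Sdha (0.937), the last a subunit of succinate dehydrogenase. Atp1b2 went with Rgs4 (0.967), Itgb5 (0.962) and Lrpap1 (0.956), and Atp1b3 with St3gal4 (0.964), Hist1h1c (0.952) and Ctnnb1 (0.9503). Fxyd2 went with Mpv17l (0.976), Lima1 (0.967) and Tdrd12 (0.965). Those of Fxyd6 were Cyp2j6 (0.898), Cd9 (0.857) and Btbd1 (0.855), and those of Fxyd1 were Elovl7 (0.897), Snx17 (0.896) and Psat1 (0.872). For Fxyd7 the highest was Tac1 (0.909), with a Spearman rho of only 0.382, since a single library carries the high value. The best match of 9456 genes is high for any gene, and the libraries share genotype, turn and cell make-up.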

How the data were processed

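RNA of 12 cochlear samples (2 repeats of 2 genotypes and 3 turns) was sequenced by the authors, who trimmed reads with fastp 0.20.0, aligned them to mm10 with STAR 2.7.3a, kept unique reads and computed FPKM with StringTie 2.0, per the paper and the submitters' processing notes. The annotation version and the strand setting were not given in the sources used here. The deposited FPKM showed no steps of whole reads, so depth and counting error are unknown and only the spread between repeats measures precision.

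Samples were grouped by the labels. Each library was scaled by its median ratio (factors 0.917 to 1.06) over 11552 genes at 1 FPKM or more in every library. Genes with at least 1 FPKM in 2 libraries (16215) entered 1 limma fit (version 3.58.1 in R 4.3.3) of 6 group means to log2(scaled FPKM + 1), with a mean-variance trend (residual degrees of freedom 6, prior 2.78), 13 contrasts, two-sided, and Benjamini-Hochberg adjustment. The fit was run on simulated data with noise drawn separately for each gene and changed genes raised to high levels. That run does not show how the fit performs for low genes or for libraries that differ in cell make-up. Repeat numbers did not pair the samples in a consistent way. Deviations of same-numbered libraries from their group means correlated at -0.43 to 0.45 over 15 pairs of groups, with 4 above 0.1. Whether libraries of different turns share a mouse cannot be told from this. Loci are as deposited. Figures were drawn with matplotlib 3.10.9.

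Log2 fold changes are given for the 7 genes where the unadjusted p was under 0.05, and for other pump and potassium cycling genes where called. Members and lists were chosen with earlier results of these data known. Some pump genes are not reported here. The authors' count tests were not used. Alternatives were other pseudocounts, filters, scalings, weights, no trend, a replicate block, only the groups compared, other thresholds and each library left out.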

Additional observations from a re-analysis of the deposited data

Results flagged for a closer look

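For Atp1b1, both homozygous libraries were above both wild-type ones in the apical and basal turns and below them in the middle turn. With each turn taken alone, the same was seen for 26.9%, 26.2% and 28.2% of genes tested. The difference of the genotype effect between the basal and the middle turn was 1.44 on the log2 scale (SE 0.371, limma adjusted p 0.0251), with 694 and 558 against 298 and 388 scaled FPKM in the basal turn and 305 and 307 against 408 and 509 in the middle turn. Over the alternatives it ranged from 1.24 to 1.63 (adjusted p 0.012 to 0.0849). Schwann cell and myelin markers differed in the same directions in these 2 turns and in the opposite direction in the apical turn (1664 to 2199 in homozygous and 2672 to 2851 in wild-type libraries), and their part in the result was not tested.

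The share of Atp1b1 among the beta subunits also went opposite ways between turns. Homozygous minus wild-type, it was -14.4 percentage points at the apex, -26.6 in the middle turn and 21.9 at the base, so that the basal and middle differences lay 48.5 points apart. Homozygous and wild-type libraries did not overlap in any turn. This difference between turns was not tested.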

How the results depend on the processing

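Of the 24 log2 fold changes given for the 7 genes, 0 turned sign under the alternatives. Of the other 67, which are not given, 34 turned sign under at least 1 alternative. Fxyd2 stayed below wild-type throughout, at -3.84 to -2.64 for the mean of the 3 turns and -5.42 to -2.57 for the basal turn, but its call did not always hold. With no filter, an equal sum, library weights, the replicate block or only the groups compared, 0 of 7 genes were called in the basal turn (adjusted p for Fxyd2 0.0323, 0.0108, 0.0257, 0.0161 and 0.137). With no filter, an equal sum or the replicate block, 0 of 7 were called in the mean of the 3 turns (0.0314, 0.0115 and 0.0202). In the apical turn 1 of 7 (Fxyd2) was called with library weights or only the groups compared. At an adjusted p under 0.05, 1 of 7 (Atp1b1) was called between homozygous basal and middle turns and 1 in the basal minus middle difference of genotype effect.

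Leaving out 1 library at a time gave 0 to 1 called gene, always Fxyd2, in the basal turn, the apical turn, the mean of the 3 turns, the homozygous basal against middle turn and the basal minus middle difference of genotype effect, and 0 to 0 elsewhere. The basal call held in 1 of these 12 fits (without wild-type basal 2) and that in the mean of the 3 turns in 2 of 12 (without wild-type basal 1 or 2). The share of Atp1b1 differed by -8.11 to -4.66 points. Repeat numbers did not pair the samples in a consistent way. The replicate block lowered calls over all genes from 696 to 177 in the basal turn and from 61 to 34 in the mean of the 3 turns. The calls of Nkain2, Kcnj16 and Gjb6 held under some alternatives and were lost under others (highest adjusted p 0.0459, 0.133 and 0.0314). A filter of 5 FPKM leaves out Fxyd7. The cause of these changes was not tested. With 2 libraries a group and no depth, small differences of Fxyd7 and of the beta subunits cannot be resolved.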
